A study of Mus musculus with 9 samples.

Results

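H3K27ac, the acetylation of histone H3 at lysine 27, was mapped against IgG in primary oviductal muscle cells by ChIC-seq, in which an antibody tethers protein A-MNase to its target and the released chromatin fragments are sequenced. The regions described here were the peaks of the pooled H3K27ac list that were overlapped by at least 1 bp in each of the 3 H3K27ac replicate lists, called kept peaks below. They numbered 25528 of 64818 pooled peaks on the nuclear chromosomes. Of the 9 samples, 6 enter here, with 3 H3K27ac and 3 IgG libraries, and the 3 H3K4me1 libraries serve for 1 comparison. All came from WT mice on D2 of pregnancy, aged 8 to 12 weeks and mated with a stud male. Oviducts were digested with enzymes, filtered, plated for a few hours in medium with serum and fixed with formaldehyde, and each library was built from 50000 cells. No sorting step is given in the labels, so that cells other than smooth muscle may be included, and nothing says whether the replicates came from separate animals. The spread between them may therefore be technical.

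H3K27ac is deposited mainly by the acetyltransferases p300 and CBP and marks active promoters and enhancers. Genes that define a cell's identity often lie under wide stretches of the mark. The oviductal muscle layer contracts to move the embryo toward the uterus in early pregnancy, under the control of estrogen, progesterone and prostaglandins.

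The 3 H3K27ac libraries had 40551842 to 42040809 fragments and the IgG libraries 3110985 to 3713369. The caller scaled each H3K27ac library down to its IgG library, a factor of 11.3, 12.9 and 13.1 in replicates 1, 2 and 3. A pileup here is the mean number of fragments over a peak after scaling. The pooled list was scaled by a factor of 12.4 to its 9961086 IgG fragments. Its pileups, used below unless a replicate is named, are therefore not comparable with those of the replicate lists. The lists of replicates 1, 2 and 3 held 152889, 99035 and 93684 peaks. Replicate 1 stood apart with the most peaks and the lowest height, a median pileup of 1.19 against 1.24 and 1.22 although its IgG library was the largest.

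Kept peaks were wider and higher than the 39290 pooled peaks that were not kept. Their median width was 2083 bp against 552 bp, their median pileup 5.09 against 3.89 and their median fold enrichment over background 1.99 against 1.75. Although only 39.4% of the peaks were kept, they held 70.9 of the 99.4 Mb covered, or 71.3%. Width enters the overlap rule, since a wider peak meets more peaks of other lists, so these differences are descriptions. The 514 pooled peaks of 10 kb or more were all kept and made up 10.2% of the kept bp.

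Promoters were the commonest site of the kept peaks by a small margin, and a peak that met both a promoter and a gene body was counted as promoter. Of the kept peaks, 37.2% overlapped sequence within 1 kb of a protein-coding start site, 36.8% lay elsewhere in a gene body, 4.96% lay in the 10 kb on either side and the rest lay beyond. Among peaks that were not kept the shares were 8.34%, 57.6% and 8.90%, with the rest beyond. By length, promoter peaks held 51.9% of the kept bp, with each peak counted whole and not only its promoter sequence. The kept peaks had a GC content of 45.4%, against 41.7% in the nuclear genome, and 18.8% of their bases were repeat-masked against 36.4%. Pooled peaks that were not kept had similar values, 44.5% and 18.8%.

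The replicates supported the kept bp unequally. Peaks of replicates 1, 2 and 3 covered 71.4%, 70.5% and 64.9% of that sequence, and 39.3% of it was covered in all 3. Conversely, 19.5%, 30.8% and 33.3% of each replicate's own peaks overlapped a kept peak. A gene's covered bp in a replicate below counts all peaks of that replicate in the window, and it can exceed the kept value.

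Across genes, the window was the gene body plus 10 kb on either side in the GENCODE M21 annotation. At least 1 kept peak lay in the windows of 12708 of 21938 protein-coding genes, or 57.9%. The median gene had 1695 covered bp, or 2.91% of its window, and the gene at the 90th percentile had 9907 bp. At least 10 kb was covered in 2161 genes, or 9.85% of the genes. The 219 genes of the top 1% held 12.6% of the covered bp summed over genes.

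Rad51b, which acts in DNA repair by homologous recombination, had the most sequence in kept peaks. Its window around chr12:79297282-79814690 held 57 kept peaks over 219272 bp, or 40.8% of the window, at a mean pileup of 5.30. The replicate lists covered 202378, 235284 and 168103 bp there. Zbtb20, a zinc finger repressor of transcription, followed with 187885 bp, or 23.9% of its window around chr16:42875881-43642602. The replicates covered 286750, 196988 and 196285 bp, and replicate 1 was high while the other two agreed closely. The order of the first genes was not settled: Zbtb20 led in replicates 1 and 3 and Rad51b in replicate 2. Zbtb20 also led, with 154854 bp against 107967 bp in Rad51b, where each replicate had to cover 50% of a peak, and Gm20388 led with 273637 bp when every pooled peak was counted.

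**Figure D1:**
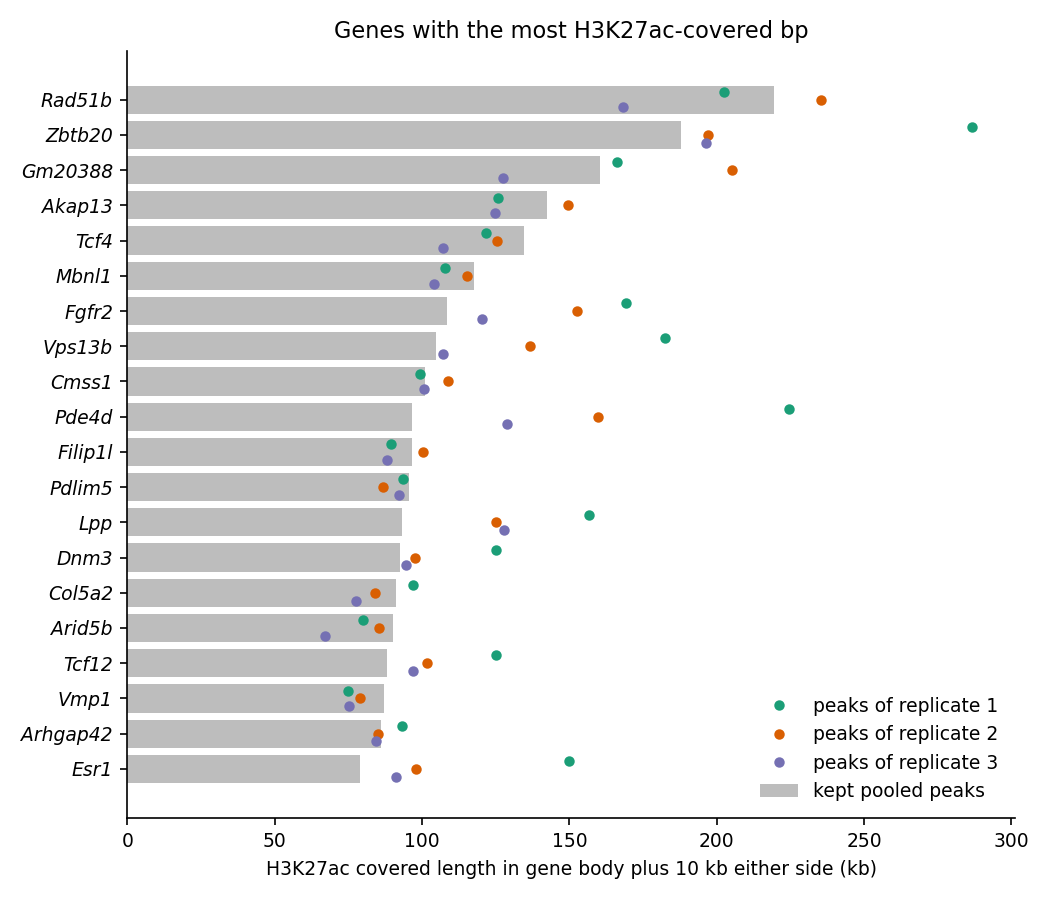
Covered length in kb for the 20 protein-coding genes with the most bp in kept peaks. Bars show the kept pooled peaks and points the peaks of each replicate list; Rad51b leads with 219272 bp, and the replicate 1 points of Zbtb20, Pde4d and Esr1 lie far to the right of the other points.

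Several of the 20 are described next by what they encode, as an order of presentation and not a tested theme. Akap13, an anchoring protein for protein kinase A that also activates RhoA, had 142445 bp, with 125738, 149358 and 124659 bp in the replicates. Arhgap42, a GTPase-activating protein of smooth muscle, had 85917 bp, with 93318, 85035 and 84333 bp. The totals had an SD of 13959 bp for Akap13 and 4997 bp for Arhgap42, but the sequence that all 3 lists covered within the kept peaks was only 50132 and 21442 bp. Pdlim5 and Lpp encode LIM domain proteins that bind the actin cytoskeleton and focal adhesions. Pdlim5 had 95535 bp over 54.2% of its window and 93655, 86581 and 92051 bp in the replicates. Lpp had 93274 bp over 15.1% of a much longer window, with 156676, 124971 and 127624 bp. Filip1l, which encodes a filamin-interacting protein, had 96451 bp and lies inside Cmss1, with 100993 bp, so the pair is 1 locus. Pde4d, a phosphodiesterase that degrades cAMP, had 96726 bp but 224485, 159521 and 128844 bp in the replicates, all above the kept value and highest in replicate 1.

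Other genes of the 20 encode nuclear proteins. Tcf4 and Tcf12, basic helix-loop-helix E proteins, had 134681 and 87958 bp. Mbnl1, a splicing regulator, had 117736 bp in only 15 peaks that filled 66.5% of its window, and the replicates covered 107898, 115263 and 104034 bp. Arid5b, a DNA-binding protein with an AT-rich interaction domain, had 89960 bp at a mean pileup of 6.70, and 79880, 85222 and 67075 bp in the replicates. Esr1, which encodes estrogen receptor α, had 78852 bp and was also highest in replicate 1, with 149891, 98026 and 91065 bp. All 3 replicate values of Esr1 lay above the kept value, and those of Arid5b all lay below it.

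Col5a2, a chain of type V collagen, was the only collagen among the 20. It had 91299 bp over 61.3% of its window and 96736, 84166 and 77594 bp in the replicates. Dnm3, a dynamin, had 92388 bp with 125223, 97664 and 94524 bp, and its gene body holds Dnm3os and the microRNAs Mir199a-2 and Mir214. Vmp1, a membrane protein needed for autophagy, had 86988 bp over 72.5% of its window, the highest share of the 20. Its replicates covered 74894, 78761 and 75265 bp, a mean of 76307 ± 2134 bp (SD, n = 3), the smallest SD of the 20. Vps13b, a lipid transfer protein of the Golgi, had 104833 bp, with 182440, 136533 and 107111 bp in the replicates. Esr1 was the last of the 20, and Cped1 (78160 bp) and Cubn (77405 bp) came next.

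The covered bp of these genes depended on how strictly peaks were taken. With a −log10 p of at least 1.3 asked of the pooled peaks and of the replicate peaks that overlap them, both at once, Arhgap42 kept 6149 bp, Pdlim5 7551 bp, Tcf12 8344 bp, Col5a2 15420 bp and Pde4d 18147 bp. Vmp1 and Arid5b kept 82925 and 77001 bp, and Rad51b and Zbtb20 remained the first and second of the 20 with 113376 and 106131 bp. Sequence covered in all 3 replicate lists ran from 21442 bp in Arhgap42 to 88419 bp in Zbtb20, with 75797 bp in Rad51b and 58539 bp in Vmp1.

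The ranking by covered bp favored long genes. The 20 windows had a median length of 345 kb, from 120 to 4455 kb, against 37.4 kb over all protein-coding genes, and none of the 20 was among the first 20 by covered share. Gm20388 and Fgfr2 were the extreme cases, with gene models of 4435 and 2961 kb. Gm20388 had 160259 bp over 3.60% of its window, which spans Gse1 (18616 bp), Ankrd11 (12153 bp) and Piezo1 (10157 bp). The Fgfr2 model had 108463 bp over 3.64% and spans Tacc2 (19408 bp), Ate1 (17755 bp) and Htra1 (11001 bp). The bp of a nested gene count for both it and the long model. Of the 20 genes, 12, 15 and 16 were among the first 20 of replicates 1, 2 and 3, and all 20 were among the first 100 in every replicate.

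The sum of pileup times length gave a similar list of genes with a different head. Of the 20 largest sums, 16 belonged to genes also among the 20 with most covered bp, and 24 genes were in either list. Gm10801 and Gm10800, 2 gene models at chr2:98662237-98664083 and chr2:98666547-98667301, shared the largest sum of 1820 kb from only 1774 covered bp, at a mean pileup of 1026. Their covered bp were 1938, 1747 and 1940 in the replicates, and presence in every list follows from the rule for kept peaks. With the gene body alone as window Gm20388 led instead, with 1238 kb, so the lead of the pair depended on the flanks. Gm20388 followed with a sum of 1240 kb over 160259 bp at a mean pileup of 7.74. Rad51b had 1162 kb, Zbtb20 1010 kb, Vmp1 786 kb over 86988 bp at a mean pileup of 9.04, and Tcf4 750 kb over 134681 bp at 5.57. The top 1% of genes held 11.5% of the sums.

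Cwc22, a spliceosome protein, and Smg6, an endonuclease of nonsense-mediated mRNA decay, entered the list by sum. Cwc22 had 74560 covered bp, or 87.5% of its window around chr2:77881159-77946375, at a mean pileup of 9.21 and a sum of 686 kb. The replicates covered 70769, 68867 and 64390 bp, which differed by little. Smg6 had 76825 bp at 5.91 and a sum of 454 kb, and its window reaches Hic1 (16522 bp), a transcriptional repressor, and the microRNAs Mir132 (9166 bp) and Mir212 (9217 bp).

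The largest sum rested on repeat-rich sequence with a high background. Only 11 kept peaks had a pileup of 30 or more. They made up 0.0237% of the kept bp and 0.600% of all pileup times length. Of their bases, 85.3% were repeat-masked, against 18.8% in all kept peaks. The 2 peaks of Gm10801 and Gm10800 had pileups of 1378 and 490. Their local backgrounds, taken from pileup and fold enrichment with the 1 that the caller adds to each, were 640 and 133, against a median of 1.86 over kept peaks. In the pooled H3K4me1 list, scaled to the same IgG libraries, the overlapping peaks had mean pileups of 494 and 339 in that list. Of the 11 peaks, 5 matched themselves best at a shift of 234 bases among shifts of 20 to 400. The clearest case was at chr9:35305225-35305575, where 110 of 117 bases were identical at that shift, and the unit at its start, chr9:35305225-35305458, is shown because sequence of this kind carried the highest pileups. It is given in GRCm38, plus strand, with nothing capitalized.
Repeat unit: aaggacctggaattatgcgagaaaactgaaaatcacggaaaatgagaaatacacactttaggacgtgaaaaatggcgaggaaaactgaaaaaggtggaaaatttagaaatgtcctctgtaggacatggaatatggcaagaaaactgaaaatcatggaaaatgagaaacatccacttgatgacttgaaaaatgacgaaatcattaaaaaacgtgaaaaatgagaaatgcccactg

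Of genes with at least 10 kb covered, the 10 with the highest mean pileups lay mostly at the start of chromosome 9. Gm10721, Gm10720, Gm10719, Gm10718, Gm10717, Gm17535 and Gm10715 are neighbours at chr9:3013140-3038316 whose windows overlap and formed 1 locus, with mean pileups of 13.6 to 26.2 and 10249 to 18249 covered bp. The background of these genes was 2.51 to 5.36. Peaks of pileup 30 or more in these windows were 96.3% to 96.7% repeat-masked, but the Gm10715 window held none of them. The repeat content of the other peaks there was not measured. Outside that locus the highest were Zc3h4, a zinc finger protein, Rhof, a small GTPase, and Vamp2, a SNARE of vesicle fusion. Zc3h4 had a mean pileup of 13.7 over 10695 bp, Rhof 13.6 over 10211 bp and Vamp2 13.5 over 13845 bp, each in 1 kept peak. Their backgrounds of 3.05, 3.58 and 4.25 lay within the range of the locus. Their mean fold enrichments of 3.64, 3.17 and 2.77 lay below the 4.12 to 4.62 of its genes. The Rhof window overlaps those of Setd1b (16738 bp at a mean pileup of 12.2) and of the long non-coding RNA AI480526 (14769 bp at 13.0). Vamp2 had 11233, 12244 and 12369 bp in the replicates, and its window is shared with Per1, a clock gene with a mean pileup of 13.0 over 15198 bp. The genes with most covered bp were lower, with a mean pileup of 4.22 in Tcf12 and 9.04 in Vmp1 as the extremes of the 20.

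**Figure D2:**
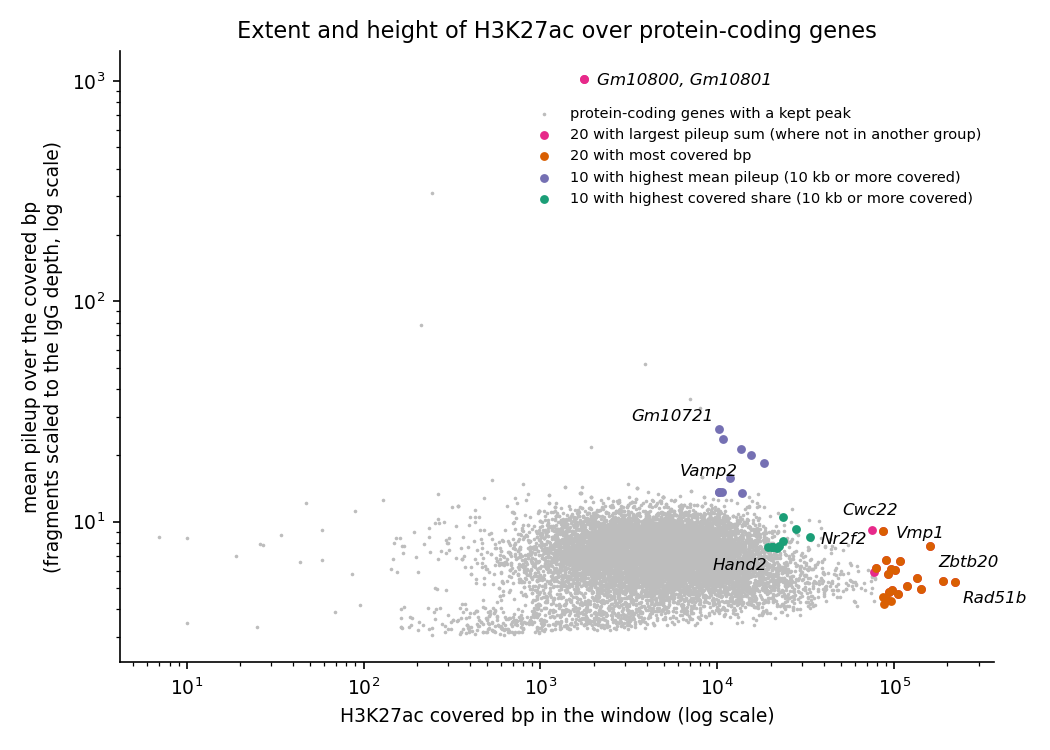
Covered bp in the gene window (log axis) against mean pileup over those bp (log axis) for 12708 protein-coding genes with a kept peak. The 20 genes with most covered bp lie at pileups of 4.22 to 9.04, while Gm10800 and Gm10801 reach 1026 with 1774 bp and the 10 genes of highest mean pileup among those with at least 10 kb covered have 10211 to 18249 bp.

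The most completely covered windows belonged to short genes, among them 4 histone genes, Hand2, Nr2f2, 3 Hox genes and Mcl1. Of the 2161 genes with at least 10 kb covered, 196 had over 50% of the window covered and 4 had all of it. Hand2, a helix-loop-helix factor that mediates progesterone action in uterine stroma, was 1 of the 4. All 23651 bp of its window around chr8:57320983-57324633 lay in 1 peak at a mean pileup of 8.17, and the replicates covered 22676, 19824 and 21039 bp, a mean of 21180 ± 1431 bp (SD, n = 3). The other 3 were the histone genes Hist1h2ab, Hist1h2bb and Hist1h3b, which with Hist1h3c shared 1 peak on chromosome 13. Replicate 3 was the lowest there, with 13015 bp for Hist1h3b against 19870 and 19563 bp.

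Nr2f2, the nuclear receptor COUP-TFII of mesenchyme and smooth muscle, had 33448 bp in 1 peak over 96.1% of its window around chr7:70351944-70366735. The replicates covered 32183, 32676 and 28767 bp. That peak ran for 45763 bp at chr7:70329629-70375391 and was the fourth widest of all kept peaks, after those at Vmp1 (61975 bp), Cwc22 (52956 bp) and Rad51b (47379 bp). Hoxa10 and Hoxd10, homeobox genes of posterior patterning, had 27930 bp (94.2%) and 22290 bp (96.2%). Hoxa10 had 23611, 27925 and 22578 bp in the replicates and Hoxd10 had 20411, 20392 and 17606 bp. Hoxd9, next to Hoxd10, had 96.1%, with replicates of 20269, 18299 and 13866 bp. Mcl1, an anti-apoptotic BCL2 family member, had 23361 bp, or 95.8%, with 21209, 21192 and 20230 bp. At Hoxd9 and the histone genes replicate 3 was low, while at Mcl1 the 3 lists had an SD of 560 bp.

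H3K4me1 called against the same IgG libraries gave other values in these windows. Its pooled list covered 0 bp in the Hoxa10 window, 0 bp in each replicate, and 3773 bp in the Hoxd10 window. In the Nr2f2, Hand2 and Mcl1 windows it covered 13810, 11765 and 19735 bp, against 33448, 23651 and 23361 bp for H3K27ac. In the Rad51b window the order was the other way, with 306368 bp of H3K4me1 and 219272 bp of H3K27ac. The pooled H3K4me1 values count every peak of that list, but the H3K27ac values count kept peaks only. With every pooled peak counted, H3K27ac covered 265663 bp in the Rad51b window. Replicates 1, 2 and 3 covered 201734, 248517 and 215805 bp there for H3K4me1. For H3K27ac they covered 202378, 235284 and 168103 bp, so H3K27ac was slightly the larger in replicate 1. These values were not tested, since the genes were picked by the H3K27ac list.

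**Figure D3:**
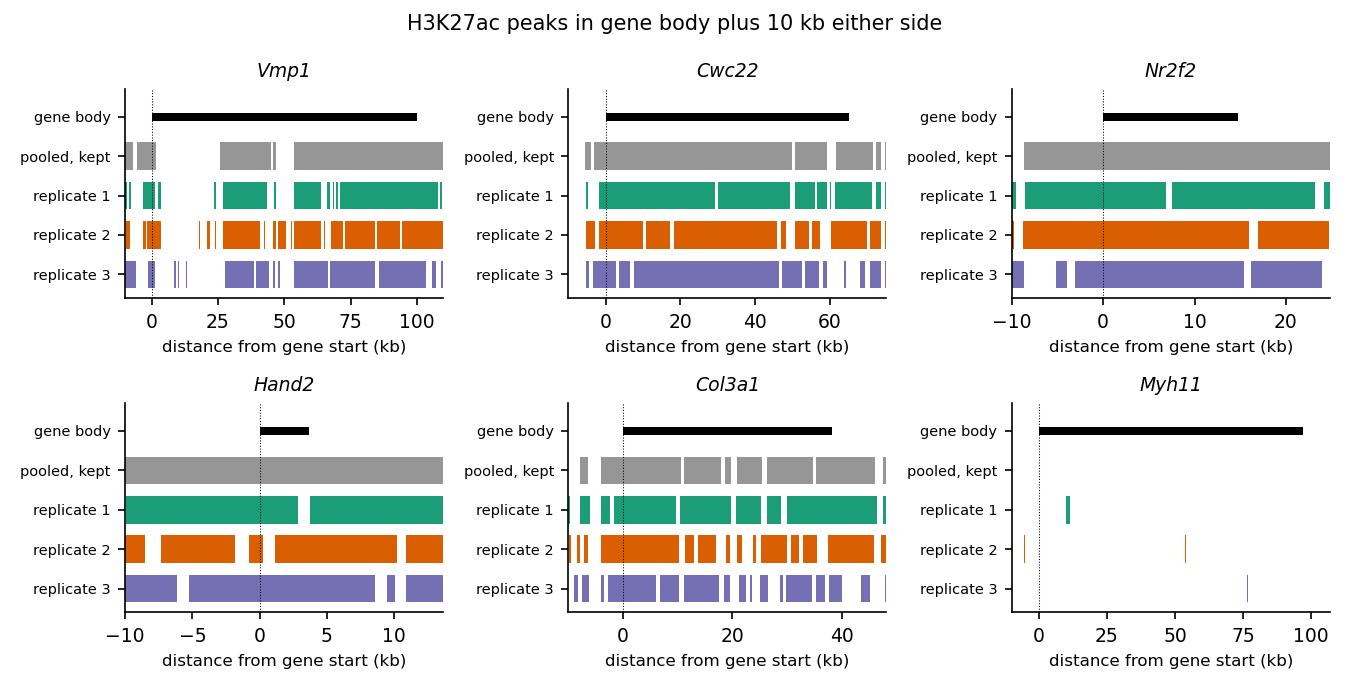
Peaks by distance in kb from the gene start, in the direction of the gene, over the gene body plus 10 kb on either side. The gray row shows kept pooled peaks and the colored rows the 3 replicate lists; Hand2 lies in 1 unbroken kept peak, Cwc22 and Nr2f2 are 87.5% and 96.1% covered, and Myh11 has no kept peak.

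The promoters of the 5 loci of compact genes other than the histone genes are shown because kept peaks covered them throughout. RefSeq promoters (GRCm38.p6) of 300 bases, from 250 before to 50 after the start, were matched for 26 of the 44 named genes, and 24 of those had a kept peak on a promoter. The 250 bases before the start are given 5′ to 3′ on the strand of the gene. They lie at chr8:57320733-57320982 (plus strand) for Hand2, chr2:74691641-74691890 (plus) for Hoxd10, chr7:70366747-70366996 (minus) for Nr2f2, chr3:95658471-95658720 (plus) for Mcl1 and chr6:52240855-52241104 (minus) for Hoxa10. Capitals mark, on either strand, the CCAAT box (CCAAT), the GC box (GGGCGG), the E-box (CACGTG) and the TEAD motif (GGAATG). The AP-1 motif (TGAGTCA) and the TATA box (TATAAA) were also searched.
Hand2: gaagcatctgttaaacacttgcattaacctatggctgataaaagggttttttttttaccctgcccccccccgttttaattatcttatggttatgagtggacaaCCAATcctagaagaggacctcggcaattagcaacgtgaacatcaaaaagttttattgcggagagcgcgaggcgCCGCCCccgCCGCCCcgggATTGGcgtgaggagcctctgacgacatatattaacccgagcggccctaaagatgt
Hoxd10: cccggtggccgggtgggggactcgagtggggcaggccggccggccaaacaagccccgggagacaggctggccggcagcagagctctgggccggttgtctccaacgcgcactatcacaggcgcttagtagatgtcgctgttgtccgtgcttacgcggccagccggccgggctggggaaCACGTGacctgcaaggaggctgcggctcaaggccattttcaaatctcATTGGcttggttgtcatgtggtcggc
Nr2f2: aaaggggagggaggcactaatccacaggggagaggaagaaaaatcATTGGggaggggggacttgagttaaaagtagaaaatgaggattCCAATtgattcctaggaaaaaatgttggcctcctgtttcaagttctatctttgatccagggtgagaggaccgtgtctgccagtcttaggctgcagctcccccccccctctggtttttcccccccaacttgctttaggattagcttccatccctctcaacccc
Mcl1: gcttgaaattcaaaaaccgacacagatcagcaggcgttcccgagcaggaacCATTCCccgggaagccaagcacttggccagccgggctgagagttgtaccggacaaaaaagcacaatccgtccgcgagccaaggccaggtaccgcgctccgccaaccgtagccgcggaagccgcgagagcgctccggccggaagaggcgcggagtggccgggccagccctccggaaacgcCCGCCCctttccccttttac
Hoxa10: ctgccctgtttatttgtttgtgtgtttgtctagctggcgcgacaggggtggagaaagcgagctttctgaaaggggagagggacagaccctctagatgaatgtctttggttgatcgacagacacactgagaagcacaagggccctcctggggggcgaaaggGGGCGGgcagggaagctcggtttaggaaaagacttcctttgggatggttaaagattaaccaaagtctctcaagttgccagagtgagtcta

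The Hand2 promoter held 2 CCAAT and 2 GC boxes, Nr2f2 held 2 CCAAT boxes, and Hoxd10 held 1 CCAAT box and 1 E-box. Mcl1 held 1 GC box and 1 TEAD motif, and the Hoxa10 promoter shown held 1 GC box. The second RefSeq promoter of Hoxa10, at chr6:52234940-52235189 and also covered throughout, held 1 CCAAT box and 1 TATA box. No motif overlapped another in these promoters. Among all 32817 promoters of 300 bases, 33.0% had a kept peak. The GC box was found in 64.0% of promoters with a kept peak and 21.7% without, at a median GC content of 61.3% and 49.3%. The CCAAT box was as common with a kept peak (37.5%) as without (37.3%). Over all promoters the GC box was in 35.6% and the CCAAT box in 37.4%. The TATA box was in 13.6% of all promoters, 6.85% with and 16.9% without a kept peak, and the AP-1 motif in 5.20%, with 3.57% and 6.01%. The E-box was in 7.15% (10.1% with, 5.72% without) and the TEAD motif in 14.7% (11.8% with, 16.1% without). A match to these letters is a description and not a bound site, and the part of GC content in these shares was not tested.

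Among non-coding genes Lncpint led by both measures. Kept peaks lay in 4240 of 12357 windows of long non-coding RNA and microRNA genes. Lncpint, a long non-coding RNA induced by p53, had 101936 bp over 64.5% of its window at a mean pileup of 8.16 and the largest sum, 832 kb. Its replicates covered 70050, 79844 and 71330 bp, all below the kept value. Mir99ahg, the host of Mir99a, Mirlet7c-1 and Mir125b-2, had 82607 bp, with 181625, 130008 and 100428 bp in the replicates. The transcripts 3110039I08Rik (78007 bp) and Gm49317 (66721 bp) overlap on chromosome 9 and hold Mir125b-1, Mirlet7a-2 and Mir100. Gm13986 had 67059 bp and lies next to Thbs1. By sum, Gm26870 (595 kb over 25482 bp) belonged to the locus at the start of chromosome 9, and Lncppara, which contains Mirlet7b and Mirlet7c-2, had 475 kb over 45580 bp at a mean pileup of 10.4.

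Of 1174 microRNA genes, 441 had a kept peak in the window. Mir21a, within the Vmp1 locus, was covered over its whole window, with 20092 bp at a mean pileup of 9.75 and 19062, 19330 and 15690 bp in the replicates. Mir196b, beside Hoxa10, had 19543 bp, or 97.3%, and the cluster of Mir99b, Mirlet7e and Mir125a on chromosome 17 had 16364 to 16986 bp. Mir125b-1 had 15646 bp, with 15154, 14646 and 14088 bp. Mir99a and Mirlet7c-1 each had 14476 bp, and the pair in Dnm3os had 13326 bp (Mir199a-2) and 12928 bp (Mir214). Mir100 and Mirlet7b were covered over less, with 6308 and 3562 bp. The mature RefSeq sequences of 12 of these are shown 5′ to 3′, with the seed, bases 2 to 8, in capitals, to show which of them share a seed. They were picked after their values were seen, and several lie in 1 cluster. They are listed by seed, beginning with ACCCGUA (3 members), GAGGUAG (3) and CCCUGAG (2). The peaks give the state of the locus and not the amount of the mature RNA.
miR-99a-5p (Mir99a): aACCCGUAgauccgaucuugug
miR-99b-5p (Mir99b): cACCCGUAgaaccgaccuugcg
miR-100-5p (Mir100): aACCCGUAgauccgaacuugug
let-7e-5p (Mirlet7e): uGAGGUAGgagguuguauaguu
let-7c-5p (Mirlet7c-1): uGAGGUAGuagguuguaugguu
let-7b-5p (Mirlet7b): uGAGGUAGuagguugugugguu
miR-125a-5p (Mir125a): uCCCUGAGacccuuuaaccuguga
miR-125b-5p (Mir125b-1): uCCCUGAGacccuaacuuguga
miR-21a-5p (Mir21a): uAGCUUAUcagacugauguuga
miR-196b-5p (Mir196b): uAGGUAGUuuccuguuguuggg
miR-199a-5p (Mir199a-2): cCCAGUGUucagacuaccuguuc
miR-214-3p (Mir214): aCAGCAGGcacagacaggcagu

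The cell type was examined with 16 markers per type. A member is called well covered below when it was in the top 10% of genes by covered bp, as 10.0% of all genes were. A kept peak in the window is to be read against 57.9% of all genes. Of the smooth muscle markers, 12 had a kept peak, 3 were well covered (5 when the gene body alone was counted) and the median member had 6.97% of its window covered, against 2.91% over all protein-coding genes. Cald1, the actin-binding caldesmon, had 61339 bp, with 60281, 68070 and 65324 bp in the replicates. Synpo2, an actin-bundling protein of the Z-disc, had 43995 bp, with 34402, 36948 and 37019 bp. No kept peak lay in the windows of 4 defining members: Myh11, the smooth muscle myosin heavy chain, Myocd, the coactivator of contractile genes, Tagln and Myl9. In the Myh11 window the replicates covered 1256, 906 and 256 bp, and in the Tagln window 288, 1188 and 2070 bp. Acta2, smooth muscle actin, had 7798 bp, with 9692, 4406 and 10509 bp, and is given although the rule for named genes did not pick it.

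Stromal matrix genes were covered over more of their windows than smooth muscle markers, with a median of 27.6%. Of 16, 14 had a kept peak and 11 were well covered, or 8 with the gene body alone. Col3a1, a chain of type III collagen, had 48244 bp over 82.9% of its window and 48689, 41045 and 35935 bp in the replicates. Fbn1, fibrillin of microfibrils, had 31504 bp, with 38258, 41783 and 36055 bp. Thy1 and Fbln1 had no kept peak. The difference between these lists was not tested.

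The lists of markers of other cell types had a lower median share than all genes, although single members such as Muc1 (11.9%) and Cd68 (46.2%) were above it. Of the epithelial markers 4 of 16 had a kept peak and none was well covered, with Esrp1 (3106 bp) and Muc1 (2898 bp) highest. The 12 without a peak included Cdh1, Cldn3, Elf3, Epcam, Foxj1, Grhl2, Krt19, Krt7, Krt8, Ovgp1 and Pax8. Of the endothelial markers 8 of 16 had a kept peak, near the 57.9% of all genes, and none was well covered, with Tek (4216 bp) and Pecam1 (3509 bp) highest and 8 without, among them Cdh5. Of the liver and neuron genes, 4 of 16 had a kept peak, with Fgb (2412 bp) and Syt1 (1649 bp) highest and 12 without. The median member of the epithelial, blood cell and liver and neuron lists had 0 bp in kept peaks. The replicate lists, which were not filtered for overlap, had peaks in 11 to 14 epithelial and 13 endothelial windows, with median shares of 2.62% to 3.05% and 2.03% to 2.90%. Over all 21938 genes, 17032, 15944 and 15747 had a peak in replicates 1, 2 and 3, with median shares of 5.09%, 4.24% and 3.63%.

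Among blood cell genes 2 members were well covered, or 1 with every pooled peak, with the gene body alone or without any 1 replicate, and 3 were in the top 10% by covered share. Of 16, 6 had a kept peak and 10 did not, including Csf1r, Adgre1 and Cd3e. Ptprc, the pan-leukocyte gene that encodes CD45, had 21238 bp at a mean pileup of 3.65, below the median of 5.09 over kept peaks, and the replicates covered 33679, 26295 and 22244 bp. Cd68, a lysosomal protein of macrophages, had 10141 bp at 9.39, with 5325, 10475 and 6420 bp. The part of leukocytes in the wide loci was not tested.

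Immediate early genes, the rapid transcriptional responders to serum and stress, had a median share of 33.9% in the kept peaks, the highest of the 12 lists, at a median mean pileup of 9.89 against 7.05 over all genes with a kept peak. In replicate 2 the stromal matrix list was higher, with 31.8% against 26.2%, and in replicates 1 and 3 the next list lay within 1 percentage point. Of 16, 15 had a kept peak and 7 were well covered, but 12 were in the top 10% by covered share of the window and 3 by bp in the gene body alone. Junb had 18350 bp over 75.7% of its window at a mean pileup of 11.7, and 19175, 17262 and 16833 bp in the replicates. Klf6 had 16632 bp at 10.5, with 21113, 17768 and 12502 bp. Egr3 had no kept peak. The cells had been digested and held in medium with serum before fixation, and the part of that handling was not tested.

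Targets of YAP and SRF, which answer to actin tension and serum, had a median share of 28.0%, with 15 of 16 peaked and 9 well covered. Vcl, the focal adhesion protein vinculin, had 40824 bp at a mean pileup of 4.88, with 59951, 41839 and 41649 bp. Myh9, non-muscle myosin heavy chain, had 38745 bp at 9.35, with 34291, 23804 and 32381 bp. Ankrd1 had no kept peak. Widely expressed genes, for comparison, all had a kept peak and a median share of 25.2%. Their windows were short, with a median of 25.4 kb, and 2 of 16 were in the top 10% by covered bp but 11 by covered share. The immediate early list, with a median window of 26.1 kb, had 7 and 12. Ywhaz (17831 bp) and Polr2a (11604 bp) had the most covered bp.

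Of the mesenchymal transcription factors all 16 had a kept peak and 13 were well covered, the highest count of the lists by bp. By covered share 8 were in the top 10%, fewer than of the immediate early (12), widely expressed (11), YAP and SRF (10) and stromal matrix (9) lists. Zeb2, a zinc finger factor of mesenchymal cells, had 55903 bp, with 78328, 59580 and 56091 bp. Foxp1, a forkhead factor, had 55083 bp, with 63323, 87541 and 50123 bp. Their windows were long, with a median of 121 kb, and the median share was 23.4%, below that of the immediate early genes. Steroid response genes had 15 of 16 peaked and 9 well covered, 4 by covered share, with a median share of 11.5%. Esr1 led with 78852 bp, and Pgr, the progesterone receptor, had 41974 bp over 47.3% of its window, with 50168, 47723 and 46400 bp. Hsd11b1, which reactivates glucocorticoids, had no kept peak.

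Of the 16 prostaglandin genes, 10 had a kept peak, near the 57.9% of all genes, and 3 were well covered, with a median share of 5.75%. Pla2g4a, the cytosolic phospholipase that releases arachidonic acid, had 62004 bp at a mean pileup of 4.13, with 72966, 61291 and 63123 bp. Ptger4, a receptor for PGE2, had 10404 bp, with 9841, 13827 and 10954 bp. No kept peak lay in the windows of Ptgs1, Ptgis, Ptger3, Ptgfr, Ptgir or Ptgdr. In each replicate list, as in the kept peaks, the median share was above that of all genes for 8 of the 12 lists, smooth muscle, prostaglandin and widely expressed genes included, and below it for the endothelial, epithelial, blood cell and liver and neuron lists.

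**Figure D4:**
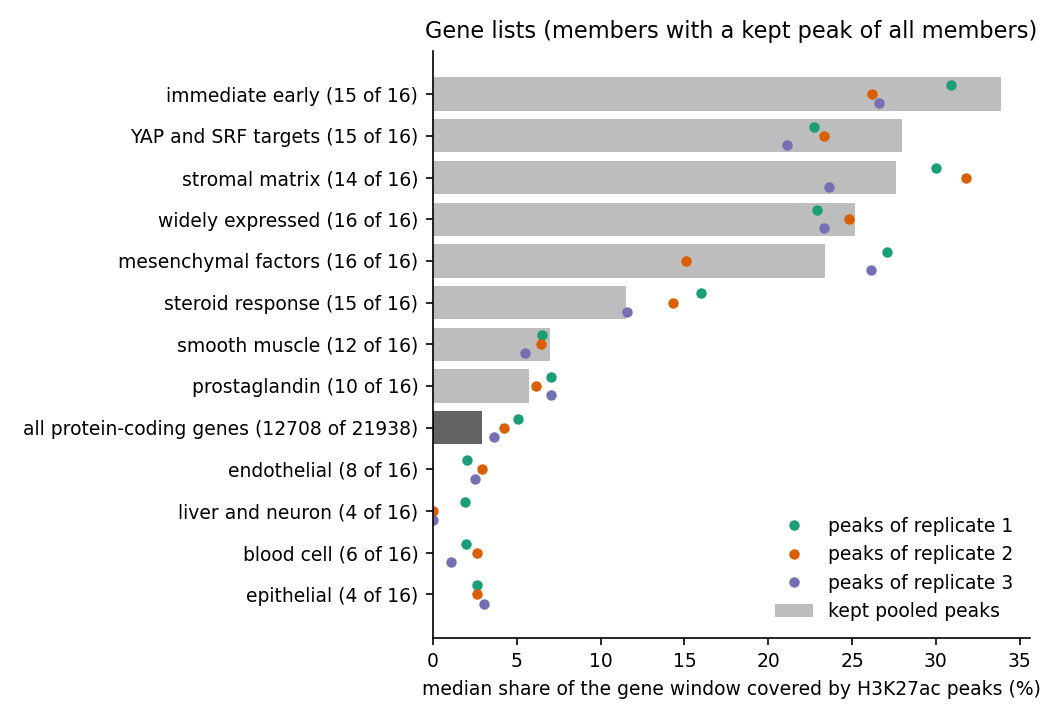
Median share of the gene window covered by H3K27ac peaks (%) for 12 lists of 16 genes and for all protein-coding genes (dark bar), with the number of members that have a kept peak. Bars show kept peaks and points the replicate lists; immediate early genes have the highest median, 33.9%, all genes 2.91%, and the epithelial, blood cell and liver and neuron lists 0.

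The last comparison asked whether H3K27ac was more or less concentrated on a few genes than H3K4me1, the other mark mapped in these cells. Each replicate list gave 1 value, with genes ranked within that list. The top 1% of genes held 13.3%, 12.2% and 12.4% of the covered bp of H3K27ac, a mean of 12.6 ± 0.580% (SD, n = 3), and 15.3%, 16.2% and 16.2% of that of H3K4me1, a mean of 15.9 ± 0.529% (SD, n = 3). Every H3K27ac list lay below every H3K4me1 list. The difference was -3.28 percentage points, with an exact two-sided permutation p of 0.100 (adjusted p = 0.150 over 3 measures), and 0.100 is the smallest p that 3 lists against 3 allow over 20 assignments. The size depended on the setting, from -2.16 with flanks of 50 kb to -10.4 at −log10 p of at least 1.3.

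By pileup sum, the top 1% held 11.1%, 10.8% and 11.2% for H3K27ac and 15.4%, 15.9% and 15.9% for H3K4me1. The groups did not overlap, with means of 11.0 ± 0.177% and 15.7 ± 0.322% (SD, n = 3), and the exact permutation p was 0.100 (adjusted p = 0.150). This difference, -4.72 percentage points, went from -2.35 with flanks of 50 kb to -11.4 for the top 5% of genes. The share of covered bp inside gene windows was 69.3%, 77.0% and 77.2% for H3K27ac and 74.9%, 75.1% and 75.2% for H3K4me1, with an exact permutation p of 1.00 and overlapping groups. Replicate 1 was the low H3K27ac list, and without it the difference turned from -0.559 to 2.03 percentage points. With the gene body alone it was -4.57 percentage points and the groups did not overlap (exact permutation p = 0.100). These limits apply to all 3 measures. The design cannot pass a threshold of 0.05, and the marks share IgG libraries, with H3K4me1 replicates 1 and 2 called against IgG replicate 2 and replicate 3 against IgG replicate 3. Depth also differed between the marks. The H3K4me1 libraries had 41891318, 78891920 and 64063996 fragments in replicates 1, 2 and 3, against 40551842 to 42040809 for H3K27ac. The part of depth in these differences was not tested.

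**Figure D5:**
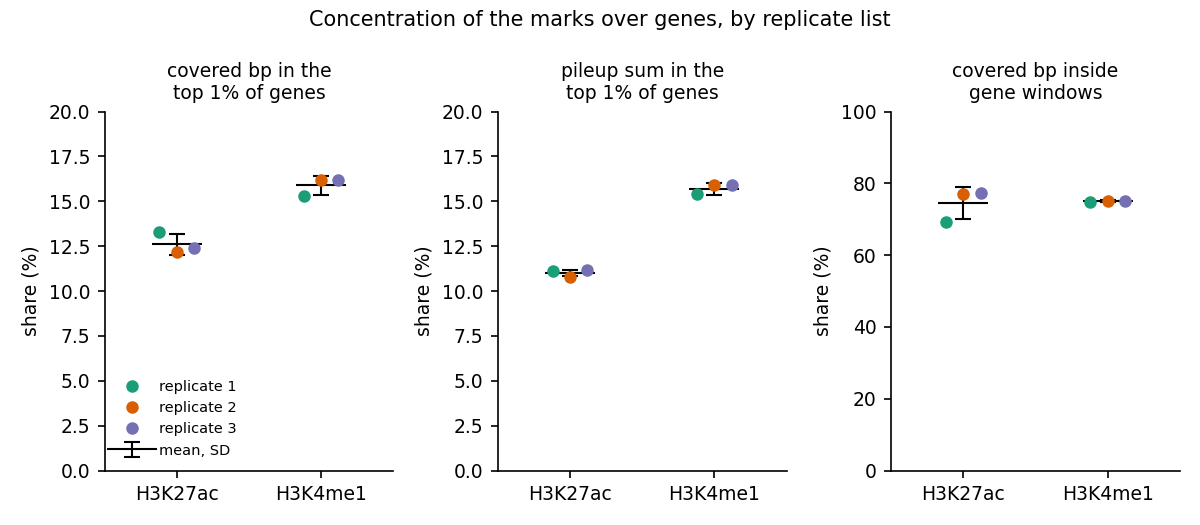
Share (%) of covered bp and of pileup sum held by the top 1% of genes, and share of covered bp inside gene windows, for each replicate list of H3K27ac and H3K4me1. Points are replicate lists and black lines the mean with its SD (n = 3); the marks do not overlap in the first and second panels and overlap in the third.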

How the data were processed

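ChIC-seq peaks of H3K27ac, with IgG as control, were analysed as deposited, and the 3 H3K4me1 lists served for comparison. Per the labels, the authors trimmed reads with cutadapt, aligned them to GRCm38.p5 with Bowtie2 and called peaks with MACS2. Per the file headers, the version was MACS 2.2.7.1, run on fragments (BAMPE) with the broad option. The p-value cutoff was 0.05 for strong regions and 0.1 for the weaker ones that link them. Whichever library was larger was scaled down, and the input names mark unique fragments without duplicates. The deposited lists give, per peak, the mean pileup (a coverage signal), the fold enrichment over the control (a ratio) and −log10 of the p-value and of the q-value; the header says that q was not calculated, and the q column was not used here. Calls were deposited for each replicate and for the pooled libraries. IgG entered only as the control of each call and has no list of its own, so no value of H3K27ac was tested against IgG. Depth was taken from the fragment numbers in the headers. PCR copies carry no molecular identifiers, so depth speaks to counting error only.

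Pooled peaks on the 19 autosomes, X and Y were kept when each replicate list overlapped them by at least 1 bp. Covered bp, the sum of pileup times length, and their ratio (mean pileup) were computed per GENCODE M21 gene body plus 10 kb on either side, with Python 3.11.15, numpy 2.4.6 and pandas 2.3.3. Covered bp are the union of the peaks. Peaks in overlapping windows count for each gene. The interval code was tested on simulated data. Promoter and microRNA sequences came from RefSeq tables of GRCm38.p6.

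Genes were named by rule: the 20 protein-coding genes with most covered bp and the 20 with the largest sum; among those with at least 10 kb covered, the 10 with the highest mean pileup and the 10 with the highest covered share; the 5 non-coding genes with most covered bp and the 5 with the largest sum; and the 2 highest members and the members without a peak in each of 12 lists. MicroRNAs, neighbours in a named window, Acta2 and the genes next after a cutoff were added after their values were seen. The members and lists were chosen with earlier results of these data known. The 2 marks were compared over replicate lists by exact permutation tests, adjusted over 3 measures by the Benjamini-Hochberg method. Alternatives covered the overlap rule, the p threshold, the window, the sequence counted and each replicate left out. Some members of the gene lists are not reported here by name.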

Additional observations from a re-analysis of the deposited data

Results flagged for a closer look

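A few pooled H3K27ac peaks lay outside the chromosomes used above. On the mitochondrial genome, which carries no histones, 4 peaks covered 4101 bp at pileups of 878 to 992 and a fold enrichment of 1.21 to 1.57. On unplaced scaffolds, 21 peaks covered 20887 bp at pileups of 4.25 to 107 and a fold enrichment of 1.38 to 9.30.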

How the results depend on the processing

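The number of kept peaks depended on the rule: 44461 with overlap in at least 2 of 3 replicate lists, 64818 for every pooled peak, 10976 with 50% of the peak covered in each replicate list, 7369 with −log10 p of at least 1.3 in both the pooled and the replicate lists, and 31113 to 33131 without 1 replicate. Of the 20 genes with most covered bp, 13 stayed among the first 20 at −log10 p of at least 1.3 and 0 when ranked by covered share of the window. Of the 20 genes with the largest pileup sum, 14 to 20 stayed. The difference between marks in the share of covered bp inside gene windows turned from -0.559 to 6.25 percentage points at −log10 p of at least 1.3 and to 2.03 without H3K27ac replicate 1 (range without 1 replicate -1.90 to 2.03); the cause was not tested. These further alternatives for the sum were chosen after seeing the data. Without gene models over 1 Mb 17 of the 20 stayed, without peaks of pileup 30 or more 18 stayed with Gm20388 first, and above the implied background 18 stayed with Gm10801 and Gm10800 still first at 1040 kb. The differences between marks in the top 1% kept their direction under every setting run, with -8.28 (covered bp) for the top 5% and -10.4 (both measures) at −log10 p of at least 1.3; that in gene windows was -4.57 with the gene body alone. Of 237 alternative values of the 20 genes' covered bp, 93 moved by the SD between replicates or more. Among list counts in the top 10%, 12 of 72 moved, among them smooth muscle from 3 to 5 with the gene body alone and widely expressed genes from 2 to 1 with every pooled peak. With the lists of both marks paired by number as a replicate block, also added after seeing the data, the mean differences were the same (-3.28, -4.72 and -0.559 percentage points), with exact sign-flip p of 0.250, 0.250 and 1.00, where 0.250 is the smallest that 3 pairs allow. The labels give the lists a shared number but no shared animal. IgG has no values of its own to pair. The depth of the IgG libraries bears on the background, fold and p-value of each call.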
